A study of Mus musculus with 8 samples.

Results

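The troponins and the sarcomeric actins of the thin filament were followed in gastrocnemius muscle of mice with and without a knockout of Anxa2, the gene of the membrane-binding protein annexin A2. The 9 genes were taken by their Ensembl row IDs from a table of 17352 rows, and all 9 were present, each with 1 row. They are the fast troponins Tnnt3 (ENSMUSG00000061723_at), Tnni2 (ENSMUSG00000031097_at) and Tnnc2 (ENSMUSG00000017300_at), and the slow troponins Tnnt1 (ENSMUSG00000064179_at), Tnni1 (ENSMUSG00000026418_at) and Tnnc1 (ENSMUSG00000091898_at). The others are the cardiac troponin T gene Tnnt2 (ENSMUSG00000026414_at) and the actin genes Acta1 (ENSMUSG00000031972_at) and Actc1 (ENSMUSG00000068614_at). The symbols come from the list that defined the genes, since the table itself holds IDs only. The study compared 4 wild-type mice with 4 Anxa2 knockout mice, all 24 weeks old and on the C57BL/6 background, with 1 array for each animal and no other treatment named. The labels give neither the knockout allele nor the sex of the animals. Muscle repair is the subject of the series, and the muscle examined was not labelled as injured.

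Troponin is the calcium switch of striated muscle. Troponin C binds calcium, troponin I holds the actin filament in the off state, and troponin T ties both to tropomyosin. Fast and slow fibres use separate genes for each subunit, and Tnnc1 also serves the heart. Acta1 encodes skeletal alpha-actin, the main actin of adult skeletal muscle. Actc1 encodes cardiac alpha-actin, which skeletal muscle uses during development and regeneration and then largely replaces with the Acta1 product, while Tnnt2 is likewise a gene of the heart and of developing skeletal muscle.

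Promoter windows are shown for the 4 genes that varied most between the arrays, and for Acta1 as the adult counterpart of Actc1. They were read from RefSeq (GRCm38.p6) from 250 bases before to 50 bases after the annotated start, and 7 of the 9 symbols, all but Tnnt3 and Tnni2, were matched. Capitals mark the CArG box, the binding motif of serum response factor, then the E-box CANNTG that myogenic regulators bind, the core CATTCC of the MCAT element, and the TATA-box letters TATAAA. Each motif was searched on both strands, and no marked motif overlaps another. Tnnt1 lies at chr7:4515926-4516225 on the minus strand, Tnni1 at chr1:135799171-135799470 on the plus strand, and Tnnc1 at chr14:31208062-31208361 on the plus strand. Actc1 lies at chr2:114052826-114053125 and Acta1 at chr8:123894726-123895025, both on the minus strand.
Tnnt1: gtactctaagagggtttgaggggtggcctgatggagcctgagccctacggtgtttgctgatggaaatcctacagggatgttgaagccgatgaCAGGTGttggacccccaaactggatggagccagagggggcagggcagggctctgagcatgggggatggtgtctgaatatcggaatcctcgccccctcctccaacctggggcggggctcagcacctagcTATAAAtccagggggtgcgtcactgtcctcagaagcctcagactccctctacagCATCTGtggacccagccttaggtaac
Tnni1: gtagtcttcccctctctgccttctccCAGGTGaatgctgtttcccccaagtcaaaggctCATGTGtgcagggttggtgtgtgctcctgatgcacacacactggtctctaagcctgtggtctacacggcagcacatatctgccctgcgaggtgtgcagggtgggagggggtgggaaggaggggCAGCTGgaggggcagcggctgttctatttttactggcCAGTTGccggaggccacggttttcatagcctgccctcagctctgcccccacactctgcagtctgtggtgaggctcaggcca
Tnnc1: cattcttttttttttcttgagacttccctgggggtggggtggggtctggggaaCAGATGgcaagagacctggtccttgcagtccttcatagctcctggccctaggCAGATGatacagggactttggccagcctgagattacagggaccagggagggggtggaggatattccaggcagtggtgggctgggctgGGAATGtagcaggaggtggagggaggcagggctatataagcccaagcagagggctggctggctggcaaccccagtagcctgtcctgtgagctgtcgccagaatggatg
Actc1: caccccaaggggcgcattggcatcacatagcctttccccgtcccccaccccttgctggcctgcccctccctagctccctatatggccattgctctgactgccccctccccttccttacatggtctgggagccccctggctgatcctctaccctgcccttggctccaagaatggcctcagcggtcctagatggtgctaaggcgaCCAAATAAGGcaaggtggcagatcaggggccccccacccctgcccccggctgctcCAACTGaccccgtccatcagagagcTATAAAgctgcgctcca
Acta1: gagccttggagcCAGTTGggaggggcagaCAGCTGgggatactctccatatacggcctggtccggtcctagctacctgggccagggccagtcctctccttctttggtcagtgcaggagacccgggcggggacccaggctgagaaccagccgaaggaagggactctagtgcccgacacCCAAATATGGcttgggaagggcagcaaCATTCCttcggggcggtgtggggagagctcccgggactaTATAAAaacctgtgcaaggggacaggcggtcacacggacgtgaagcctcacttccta

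A CArG box stood in both actin windows and in none of the other 7 windows, which cover Tnnc2, Tnnt1 and Tnnc1 once and Tnni1 and Tnnt2 with 2 annotated starts each. In Acta1 it began at base -73 from the annotated start, and in Actc1 at base -47. Of all 32851 RefSeq windows of the same length, 1.63% held one. CANNTG was present in all 9 windows, but also in 72.3% of all windows. CATTCC was found in Tnnc1, in Acta1 and in 1 of the Tnnt2 windows, against 14.7% of all windows, and TATAAA in Tnnt1, Acta1 and Actc1, against 13.6%. TATAAA began at base -30 in Tnnt1, at base -7 in Acta1 and at base 34 in Actc1, there after the annotated start. These matches describe the letters of the windows only. In gene order, Tnni2 and Tnnt3 are separated by a single protein-coding gene, Lsp1, Tnni1 and Tnnt2 by Lad1, and Tnnt1 lies next to the cardiac troponin I gene Tnni3.

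The values are RMA log2 expression values, so that a difference of 1 is a 2-fold change. Array medians lay between 4.95 and 5.09, and the highest value of an array between 14.5 and 14.6. Acta1, a defining gene of the labelled tissue, was the highest row of the array in 8 of 8 arrays. The correlation of array pairs across rows ran from 0.974 to 0.995. Wild type replicate 4 stood apart, with a mean correlation of 0.978 with the other arrays against 0.988 to 0.991 for the rest, and a score of 46.5 on the first principal component, against -15.5 to 13.8 for the rest. The arrays also fell into 2 sides that cross genotype. The row with the widest gap between its 4 lowest and 4 highest arrays, ENSMUSG00000069045_at, read 2.59 to 2.71 in wild type replicates 1 and 2 and knockout replicates 3 and 4, called the first side here. It read 8.40 to 9.05 in wild type replicates 3 and 4 and knockout replicates 1 and 2, the second side. No label used here names a factor that matches these sides, and the knockout of Anxa2 was not checked by its own row, for want of a table that pairs the IDs with symbols.

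Slow troponin transcripts differed widely between arrays, and their means were lower in the knockout, within the spread between arrays. Tnnt1, the slow troponin T, read 12.06, 12.12, 10.97 and 10.78 in wild type replicates 1 to 4, and 10.85, 10.32, 11.30 and 11.57 in knockout replicates 1 to 4. Wild type replicates 1 and 2 were the highest of all arrays and knockout replicate 2 the lowest, and the genotypes overlapped. Wild type had a mean of 11.48 ± 0.71 and the knockout one of 11.01 ± 0.55 (SD, n = 4). The difference of -0.47 (SE 0.35, 95% interval -1.26 to 0.32) had a limma p of 0.214 before and 1.00 after Benjamini-Hochberg adjustment. In a whole-muscle extract, fewer slow fibres and less of the transcript in each fibre cannot be told apart.

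Tnni1, the slow troponin I, followed the same order at the top. It read 9.37, 9.54, 8.67 and 8.53 in wild type replicates 1 to 4, and 8.56, 8.18, 8.65 and 9.08 in knockout replicates 1 to 4. The means of 9.03 ± 0.50 and 8.62 ± 0.37 (SD, n = 4) differed by -0.41 (SE 0.25, 95% interval -0.97 to 0.15), with a limma p of 0.136 and an adjusted p of 1.00. Again wild type replicates 1 and 2 were the 2 highest arrays, and the groups overlapped.

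Tnnc1, the troponin C of slow fibres and heart, read 11.67, 11.96, 10.94 and 11.10 in wild type replicates 1 to 4. In knockout replicates 1 to 4 it read 11.01, 10.37, 11.01 and 11.07. The groups overlapped only where wild type replicate 3 lay below 3 of the knockout arrays. The means of 11.42 ± 0.48 and 10.86 ± 0.33 (SD, n = 4) differed by -0.55 (SE 0.24, 95% interval -1.08 to -0.03). Knockout expression was thus 1.47-fold lower on average. The limma p was 0.0413 before and 1.00 after adjustment over all rows, so that the difference did not pass the threshold of 0.05.

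**Figure D1:**
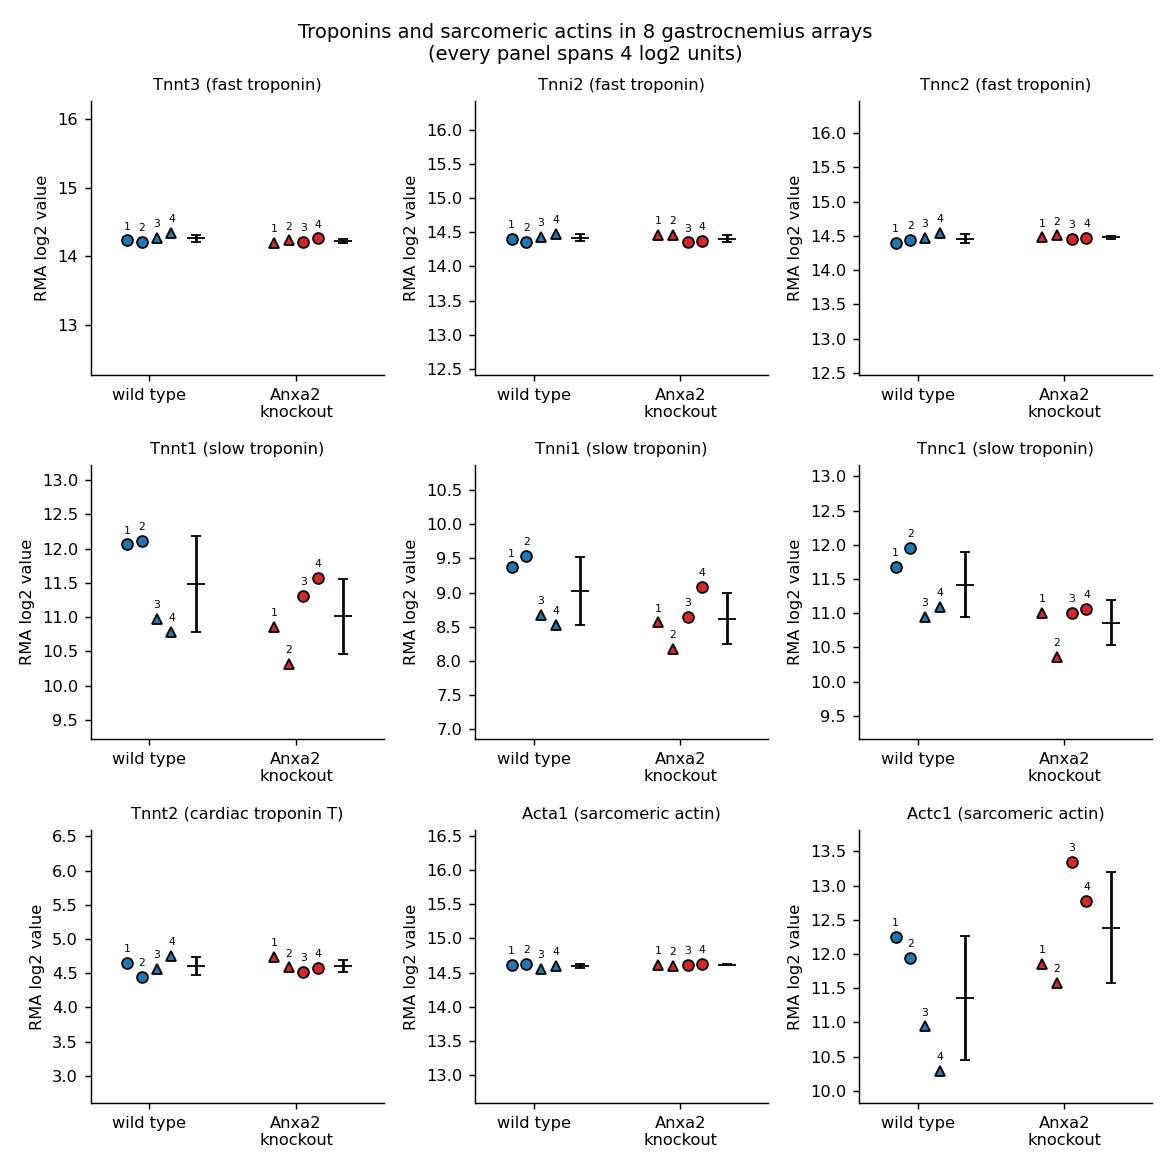
RMA log2 value of each of the 9 genes (vertical axes, each spanning 4 log2 units) in wild-type (blue) and Anxa2 knockout (red) arrays, with the replicate number above each point and the mean ± SD (n = 4) to the right. Circles are first-side arrays and triangles second-side arrays. The fast troponins, Acta1 and Tnnt2 are nearly flat, while the slow troponins and Actc1 spread over 1.36 to 3.04 log2 units.

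The fast troponins, the isoforms of the fibres that make up most of this muscle, lay at the top of the scale and hardly differed between arrays. Tnnt3 read 14.23, 14.21, 14.27 and 14.34 in wild type replicates 1 to 4 and 14.20, 14.23, 14.21 and 14.26 in knockout replicates 1 to 4. Tnni2 read 14.40, 14.36, 14.43 and 14.48 in wild type, and 14.45, 14.45, 14.35 and 14.37 in the knockout. Tnnc2 read 14.40, 14.44, 14.47 and 14.54 in wild type, and 14.48, 14.51, 14.46 and 14.47 in the knockout. In each of the 3 genes wild type replicate 4, the array that stands apart, was the highest. The genotype differences were -0.04 (SE 0.08) for Tnnt3, -0.01 (SE 0.08) for Tnni2 and 0.02 (SE 0.08) for Tnnc2, each with a limma adjusted p of 1.00. The 95% intervals of these genes reached at most 1.17-fold on the RMA scale. That scale is compressed here: Tnnc2 ranked between 2 and 3 from the top of each array, Tnni2 between 2 and 5, and Tnnt3 between 6 and 7. Quantile normalization gives the top ranks nearly the same values in every array, so a change of genes that stay at the top would be reduced or lost.

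Acta1 was bounded in the same way, since it was the highest row throughout. It read 14.61, 14.63, 14.55 and 14.59 in wild type replicates 1 to 4 and 14.62, 14.60, 14.61 and 14.63 in knockout replicates 1 to 4. The groups overlapped, and the difference of 0.02 (SE 0.08, 95% interval -0.16 to 0.20) had a limma adjusted p of 1.00.

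Actc1 had the largest spread of the 9 genes, and its mean was higher in the knockout without passing the test. It read 12.25, 11.94, 10.94 and 10.29 in wild type replicates 1 to 4, and 11.85, 11.58, 13.34 and 12.77 in knockout replicates 1 to 4. Knockout replicates 3 and 4 lay above every wild-type array and wild type replicates 3 and 4 below every knockout array, while knockout replicates 1 and 2 lay below wild type replicates 1 and 2. Wild type had a mean of 11.36 ± 0.90 and the knockout one of 12.39 ± 0.82 (SD, n = 4), a level 2.04-fold higher. The difference of 1.03 (SE 0.48, 95% interval -0.03 to 2.09) had a limma p of 0.0556 and an adjusted p of 1.00. The interval runs from 1.02-fold lower to 4.25-fold higher. Between the lowest and the highest array the level differed 8.25-fold, and only 22 of the 17352 rows had a wider range.

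Tnnt2 lay below the median of every array, and no detection call shows whether it was above background. Its wild-type arrays read 4.64, 4.45, 4.56 and 4.75 and its knockout arrays 4.73, 4.58, 4.52 and 4.58. The groups overlapped throughout, with a difference of 0.00 (SE 0.10, 95% interval -0.22 to 0.23) and a limma adjusted p of 1.00. Its range over the 8 arrays was 0.30 log2 units, against 3.04 for Actc1.

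At an adjusted p under 0.05, limma called 0 of the 9 genes and 0.0% of all rows. At an unadjusted p under 0.05 it gave 1 of the 9, Tnnc1, against 269 rows or 1.55% of the table. In 0 of the 9 genes were the arrays of the genotypes separate, against 1.31% of all rows. The median difference of the 9 was -0.01, as was that of all rows. The 95% interval lay within 1.5-fold either way for 5 of the 9, namely the fast troponins, Acta1 and Tnnt2, against 87.1% of all rows. It lay within 2-fold for 6 of the 9, Tnni1 included, against 98.4%, so that for Tnnt1, Tnnc1 and Actc1 a 2-fold change in 1 direction was not excluded. These intervals hold on the RMA scale only. The fast troponins and Acta1 lay at its compressed top, where a change may be reduced or lost, and Tnnt2 lay low without a detection call. The range over the 8 arrays was wider than in 98.9% of rows for Tnnt1, 98.2% for Tnnc1 and 96.5% for Tnni1.

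Tnnt1 and Actc1 were separate between the sides of the arrays, whereas none of the 9 genes was separate between the genotypes. Tnnt1 lay between 11.30 and 12.12 in the first-side arrays and between 10.32 and 10.97 in the others, without overlap. Actc1 likewise kept to 11.94 to 13.34 against 10.29 to 11.85. Tnni2 was separated too, but in the other direction and by little, at 14.35 to 14.40 and 14.43 to 14.48. In all, 3 of the 9 genes were separate by side, against 7.32% of all rows. Tnni1 (8.65 to 9.54 against 8.18 to 8.67) and Tnnc1 (11.01 to 11.96 against 10.37 to 11.10) overlapped narrowly. What the sides stand for was not tested.

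Because each side holds 2 arrays of each genotype, the genotypes can be compared within it. Actc1 was higher in both knockout arrays than in both wild-type arrays on either side, by 0.96 on the first side (1.94-fold) and 1.10 on the second (2.14-fold). The slow troponins were lower in the knockout on the first side without overlap, by -0.65 for Tnnt1, -0.59 for Tnni1 and -0.78 for Tnnc1. On the second side the means of the slow troponins differed by -0.29, -0.23 and -0.33 in the same order, and the arrays of the genotypes overlapped. Separation within a side was not limited to these genes. The genotypes were also separate for Tnnc2 on the first side (0.04), and for Tnnt3 (-0.09) and Acta1 (0.04) on the second. The share of all rows separate within a side was not counted. With 2 arrays against 2, these within-side values carry no test. The genotype difference had the same sign on both sides in 6 of the 9 genes, Tnnt2 and Acta1 with differences near 0 among them, against 47.5% of all rows.

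The side was then added as a block in the limma fit over all 8 arrays, a model chosen after seeing the data. Because each side holds equally many arrays of each genotype, this block could not change the differences, only their errors. The errors of the slow troponins and Actc1 were smaller, while those of Tnnt3, Tnnc2 and Acta1 rose slightly and those of Tnni2 and Tnnt2 hardly moved. Actc1 then had a difference of 1.03 (SE 0.18, 95% interval 0.63 to 1.42), with an unadjusted limma p of 0.000204, which ranked 2 among the 17352 rows. Tnnc1 had -0.55 (SE 0.16), with an unadjusted limma p of 0.00663. Tnnt1 had -0.47 (SE 0.14) with 0.00914, and Tnni1 had -0.41 (SE 0.14) with 0.0174. These 4 of the 9 genes had an unadjusted p under 0.05, against 2.22% of all rows. After Benjamini-Hochberg adjustment over all rows each limma p was 1.00, and 0 rows were called in this fit. The other 5 genes had differences between -0.04 and 0.02.

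**Figure D2:**
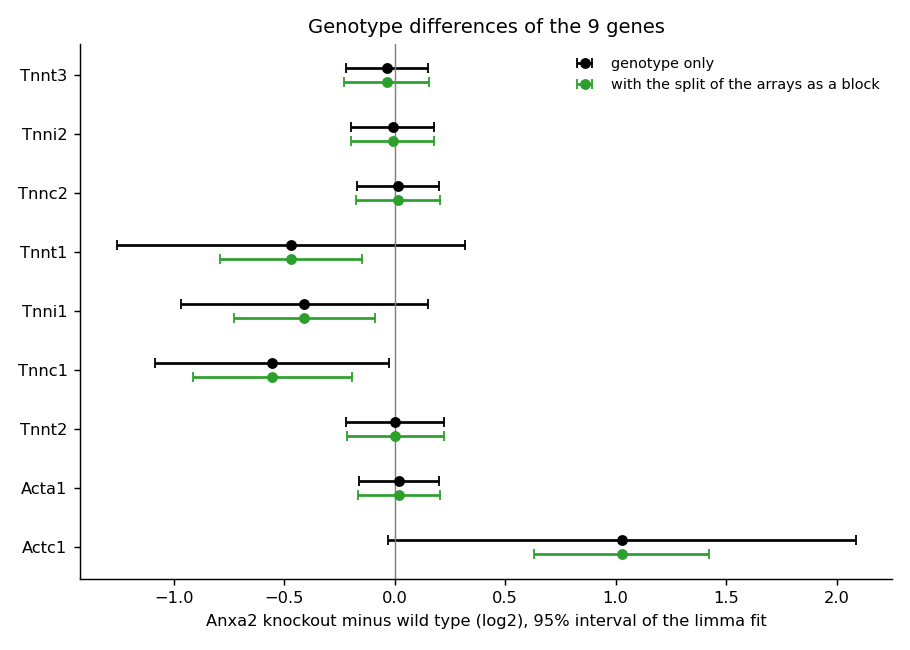
Anxa2 knockout minus wild type on the log2 scale (horizontal axis) for each gene, with 95% intervals of the limma fit with genotype only (black) and with the side of the arrays as a block (green). The differences are equal in both fits because the sides are balanced for genotype. For Tnnt1 and Actc1 the SE falls from 0.35 to 0.14 and from 0.48 to 0.18, and the intervals of the fast troponins, Acta1 and Tnnt2 stay narrow around 0.

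The array-by-array course of the slow troponins was shared. Over the 8 arrays, all 36 pairs of genes were correlated, with exact two-sided permutation p-values adjusted over the pairs. Tnnt1 and Tnni1 had a Pearson r of 0.979 (exact permutation p = 7.44e-05, adjusted 0.00268) and a Spearman rho of 0.976 (exact permutation p = 0.000397, adjusted 0.0143). Tnni1 and Tnnc1 had an r of 0.931 (exact permutation p = 0.00119, adjusted 0.0214), but a rho of 0.667 (exact permutation p = 0.0831, adjusted 0.249). Tnnt1 and Tnnc1 had an r of 0.909 (exact permutation p = 0.00238, adjusted 0.0286) and a rho of 0.690 (exact permutation p = 0.0694, adjusted 0.232). These were the 3 of the 36 pairs whose Pearson r passed an adjusted p of 0.05, and Tnnt1 with Tnni1 was the 1 pair whose rho passed. The 2 arrays farthest from the Tnnt1 median, and likewise from the Tnni1 median, were wild type replicates 1 and 2. Without them r was 0.946 for Tnnt1 with Tnni1, 0.742 for Tnni1 with Tnnc1 and 0.727 for Tnnt1 with Tnnc1. With the mean of each side removed, r was 0.973, 0.902 and 0.935 in that order. Among other rows with a mean log2 value of at least 6, 0.999% had an r above 0.9 with the mean of the slow troponins, genotype means removed.

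The r of Actc1 with the slow troponins depended on which means were removed. Its r with Tnnt1 over the 8 arrays was 0.469 (exact permutation p = 0.242, adjusted 0.392), with a rho of 0.643 (exact permutation p = 0.0962, adjusted 0.266), and r was 0.621 without wild type replicates 1 and 2 and 0.263 without wild type replicate 4 and knockout replicate 2. With the genotype means removed r was 0.916 (permutation p = 0.00972, adjusted 0.0438). With the side means removed it was -0.660 (permutation p = 0.0854, adjusted 0.384), which did not pass. These permutations moved deviations freely between arrays, although the removed means tie the deviations together. Their p-values are therefore not exact and may be too small. For Tnni1 with Actc1 r was 0.824 with the genotype means removed and -0.704 with the side means removed. For Tnnc1 with Actc1 it was 0.763 and -0.714, likewise given without a test. Tnni1 and Tnnt2, separated by Lad1 in gene order, had an r of -0.418 (exact permutation p = 0.304, adjusted 0.405) and a rho of -0.548 (exact permutation p = 0.171, adjusted 0.342), with an r of -0.191 without wild type replicates 1 and 2.

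**Figure D3:**
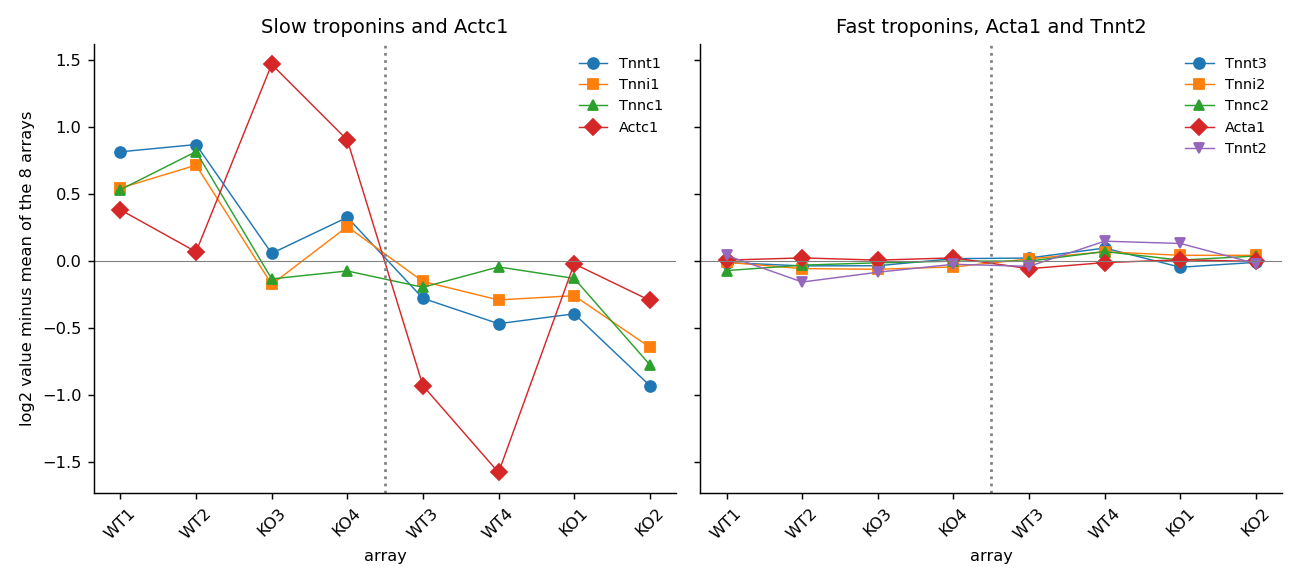
Log2 value of each gene minus its own mean over the 8 arrays (vertical axis), with the first-side arrays left and the second-side arrays right of the dotted line. Tnnt1, Tnni1 and Tnnc1 peak in wild type replicates 1 and 2 and are lowest in knockout replicate 2, Actc1 peaks in knockout replicate 3, and the 5 genes on the right span at most 0.30 log2 units each.

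Over the 8 arrays each fast troponin had a negative r with each slow one, in 9 pairs of which 0 passed the adjusted threshold. With the side means removed, 6 of these pairs were positive, those of Tnnt3 at 0.052 to 0.094 and those of Tnni2 at 0.178 to 0.238, and only the pairs of Tnnc2 stayed negative, at -0.569 to -0.369. The sign also turned for Tnni2 with Tnnt1 after renewed quantile normalization, at 0.069, and for Tnnt3 with Tnni1 without wild type replicate 4 and knockout replicate 2, at 0.015. The strongest over the 8 arrays was Tnnc2 with Tnnt1, at an r of -0.823 (exact permutation p = 0.0109, adjusted 0.0982) and a rho of -0.91 (exact permutation p = 0.00298, adjusted 0.0536), with an r of -0.921 without wild type replicates 1 and 4. The range of Tnnc2 was only 0.14 log2 units, against 1.80 for Tnnt1. Tnnt3 and Tnni2, separated by Lsp1 in gene order, had an r of 0.501 (exact permutation p = 0.201, adjusted 0.392) and a rho of 0.407 (exact permutation p = 0.314, adjusted 0.416), with an r of 0.471 without wild type replicate 4 and knockout replicate 1.

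**Figure D4:**
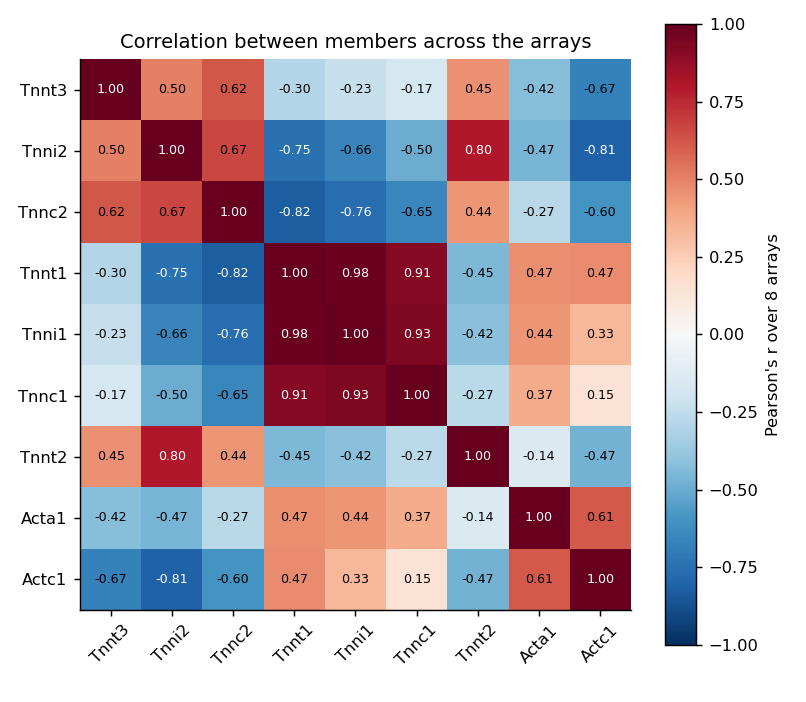
Pearson's r over the 8 arrays for every pair of the 9 genes, coloured from -1 (blue) to 1 (red). The block of Tnnt1, Tnni1 and Tnnc1 holds values of 0.909 to 0.979, and the slow troponins are negative against each fast troponin here, though 6 of these 9 pairs are positive once the side means are removed.

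The balance of slow to fast isoforms was taken within each array as the mean of the 3 slow minus the mean of the 3 fast log2 values. Its absolute size depends on the probes of each row, so it is compared between arrays only. It read -3.31, -3.13, -4.19 and -4.32 in wild type replicates 1 to 4, and -4.23, -4.78, -4.02 and -3.79 in knockout replicates 1 to 4. Wild type replicates 1 and 2 had the highest values and knockout replicate 2 the lowest, and the genotypes overlapped. The means of -3.74 ± 0.60 for wild type and -4.21 ± 0.42 for the knockout (SD, n = 4) differed by -0.47, less than the SD of the wild-type arrays. On the first side the difference was -0.69, and among second-side arrays it was -0.25. No test is given for this score, because its members were chosen with earlier results of these data known.

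The 3 subunits differed in the same direction when each slow gene was set against its fast counterpart. The genotype difference was -0.43 for Tnnt1 minus Tnnt3, -0.40 for Tnni1 minus Tnni2 and -0.57 for Tnnc1 minus Tnnc2, with SDs of 0.35 to 0.76 within the groups. With 1 array left out, Tnnt1 minus Tnnt3 came nearest 0 without knockout replicate 2 or wild type replicate 2, at -0.20 each, or wild type replicate 1, at -0.23, and was farthest without wild type replicate 4, at -0.69. Tnni1 minus Tnni2 was -0.21 without wild type replicate 2 and -0.24 without knockout replicate 2, and Tnnc1 minus Tnnc2 ran from -0.73 to -0.38 over the left-out arrays. For Actc1 minus Acta1 the arrays read -2.36, -2.69, -3.61 and -4.30 in wild type replicates 1 to 4 and -2.76, -3.02, -1.27 and -1.85 in knockout replicates 1 to 4. Knockout replicates 3 and 4 had the highest values and wild type replicates 3 and 4 the lowest. The means of -3.24 ± 0.88 and -2.23 ± 0.81 (SD, n = 4) differed by 1.01, with overlap between the groups, and by 0.66 without wild type replicate 4. Since the fast troponins and Acta1 were nearly constant on this scale, these differences carry the course of Tnnt1, Tnni1, Tnnc1 and Actc1.

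**Figure D5:**
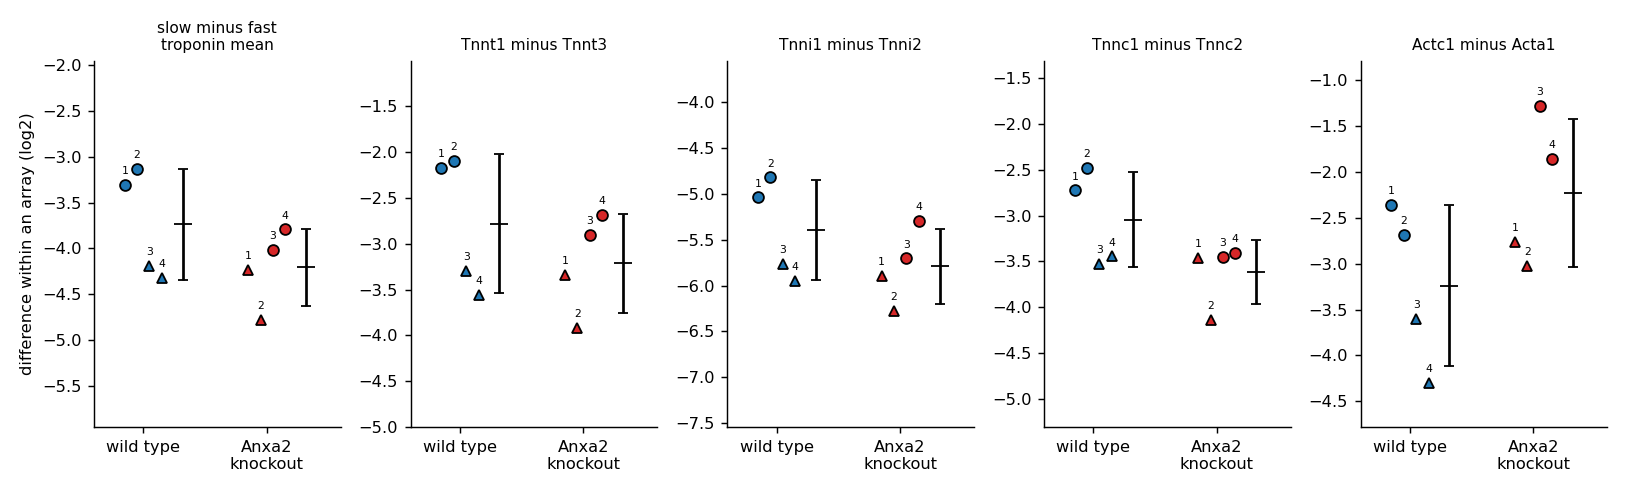
Difference within an array on the log2 scale (vertical axes, each spanning 4 units) for the mean of the slow minus the mean of the fast troponins, for each slow and fast subunit pair and for Actc1 minus Acta1, with mean ± SD (n = 4). Circles are first-side and triangles second-side arrays. Knockout minus wild-type means run from -0.57 to -0.40 in the troponin panels and reach 1.01 in the actin panel, with overlap in each.

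Among the 6008 other rows with a mean log2 value of at least 6, the course of the slow troponins over the 8 arrays, genotype means removed, was most like that of ENSMUSG00000040321_at, at an r of 0.974, and 60 rows had an r above 0.9. For Actc1 the most similar row was ENSMUSG00000031245_at, at an r of 0.983, with 80 rows above 0.9. The fast troponin mean had 199 such rows and Tnnt2 had 13. These values describe 8 arrays that share the split into sides, and neither ID could be given a gene name here.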

How the data were processed

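Total RNA of left gastrocnemius was labelled with an Affymetrix 3' IVT kit, per the labels' protocols, and hybridized to 1 array per animal. The deposited values are log2 expression values made with RMA in R 3.1.2, per the submitters' processing notes. How probes were grouped into rows, and any filter or scan date, is not given in the sources used here. All 17352 rows, without a filter, were fitted with limma 3.58.1 in R 4.3.3 (genotype as the only term, empirical Bayes, two-sided, Benjamini-Hochberg over all rows, threshold 0.05). The fit was also tested on simulated data with independent noise in each row. The simulated arrays had no split into sides, unlike the arrays here. With 4 arrays per genotype, the number of arrays limits the precision. Per-array differences of slow and fast genes were described without a test. Correlations used permutation of the 8 arrays in numpy 2.4.6, exact only where no means were removed, and figures matplotlib 3.10.9.

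The members, lists and alternatives were chosen with earlier results of these data known. All 9 members are named. Lists of other muscle and cell type genes, by symbol, were not analysed here, because no table used here pairs Ensembl IDs with symbols, and at most 2 other IDs by likeness are given. Alternatives covered blocks, filters, moderation, array weights, scaling and left-out arrays. The block for the side of the arrays was added after seeing the data. The animals are labelled as biological replicates.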

Additional observations from a re-analysis of the deposited data

Results flagged for a closer look

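In 28 checks, of each gene and each within-array difference in each genotype, for 1 array far from the other 3, 2 found one, where chance gives about 1 in 20. Both concern Tnnc1 in knockout replicate 2. Tnnc1 read 10.37 there against 11.01 to 11.07 in the other knockout arrays. Tnnc1 minus Tnnc2 read -4.14 there against -3.47 to -3.40. Without that array the Tnnc1 difference between the genotypes was -0.39, and the part of that array in the result was not tested.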

How the results depend on the processing

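Over 18 alternative fits each (17 for Tnnt2, which the filter at the 50th percentile left out), Tnnt1, Tnni1 and Tnnc1 stayed lower and Actc1 higher in the knockout, and none of the 9 genes passed the adjusted threshold. The replicate block, the side block, the level filters and the changed moderation could not alter a difference, only its error. Array weights, scaling and left-out arrays could alter the difference itself. With each array left out in turn, the difference ran from -0.70 to -0.24 for Tnnt1, -0.57 to -0.24 for Tnni1, -0.71 to -0.38 for Tnnc1 and 0.67 to 1.33 for Actc1. Tnnt1 was nearest 0 without knockout replicate 2, and Actc1 without wild type replicate 4. The near-zero differences changed sign: Tnni2 read 0.013 with array weights, 0.011 after renewed quantile normalization, 0.026 after cyclic loess and -0.030 to 0.012 with each array left out. Tnnc2 read -0.0055 to 0.042 and Tnnt2 -0.049 to 0.053 with each array left out, and Tnnt2 -0.0020 after median centring. The slow minus fast index ran from -0.66 to -0.27 over left-out arrays. Of all rows, 1 was called in place of 0 under median centring, cyclic loess, quantile normalization, array weights, the replicate block or an adjusted p under 0.10, and 269 at an unadjusted p, where 1 member is counted. Deviations of same-numbered arrays correlated at -0.072, -0.25, 0.18 and -0.24. Same-numbered arrays always lay on opposite sides, so these values cannot show whether the animals were paired. The replicate block changed no member's call. Members at an unadjusted limma p under 0.05 were 0 with that block, against 279 of the 17352 rows. With each array left out they were 0 to 2, against 198 to 530 rows. Without wild type replicate 1 or 2, or knockout replicate 1 or 2, the member was Actc1, higher in the knockout, in place of Tnnc1. Without wild type replicate 4 and knockout replicate 2, r was 0.965 for Tnnt1 with Tnni1, 0.895 for Tnnt1 with Tnnc1 and 0.923 for Tnni1 with Tnnc1, each with an exact permutation p of 0.10 after adjustment, since 6 arrays give larger p-values. Tnnt3 with Tnni2 had an r of -0.200 after quantile normalization. Tnnt1 with Actc1 had 0.916 on genotype deviations (permutation p = 0.0438 adjusted) and -0.660 on side deviations (permutation p = 0.384 adjusted). On deviations these p-values are not exact and may be too small.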
